A study of Mus musculus with 15 samples.

Results

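Solute carriers are the membrane proteins, grouped in numbered Slc families, that move amino acids, sugars, ions, metals, nucleotides and vitamins across the plasma membrane and across the membranes of organelles. Their genes were read here in mouse fibroblasts transfected with 1 of 4 C/EBP transcription factors or with an empty plasmid. A gene was a member if a probe set of the array was assigned to it alone and its symbol began with Slc and a digit; the zinc exporter Slc30a1 and the iron carrier Slc11a2 were left out. This gave 149 genes, read by 182 probe sets, among the 8251 genes that the array's annotation names alone. Of the 149, 92 were bright enough to be tested, among 5338 genes tested in all. The rule reads gene names and uses no measured value, but it was set with earlier results of these data known.

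The cells were NIH 3T3, an immortal mouse embryo fibroblast line, and all 5 groups carried the pMTCB6+ plasmid, in which a metallothionein promoter that zinc switches on drives the insert. The plasmid was empty in the vector group and in each other group it held the human cDNA of 1 C/EBP, namely α, β, δ or ε, after which that group is called C/EBPα, C/EBPβ and so on. Every group was selected with G418, an antibiotic, as polyclonal transfectants, and every group, vector included, received zinc sulphate for 16 h before total RNA was taken. Each group had 3 arrays, called replicates 1 to 3 after the titles. Whether the 3 came from separate transfections is not given, so a p-value here speaks for the spread among these arrays, which may be technical. All RNA came from bulk cultures, in which fewer cells with a transcript and less of it per cell cannot be told apart.

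As background, C/EBPs are leucine zipper factors that bind DNA as pairs and act in the differentiation of fat, liver and myeloid cells. Several carriers of amino acids are known targets of ATF4, a related factor that is raised when amino acids run short or when proteins misfold, and that can pair with C/EBPs on a composite DNA element. Other carriers answer to other needs: the cation-chloride cotransporters set cell volume, the Slc25 family links mitochondria to the cytosol, and the Slc30 and Slc39 families export and import zinc.

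Signals are linear array units, scaled so that all arrays had the same median. Before that scaling the array medians lay between 994.6 and 1153.95 units. A gene was tested if its probe set exceeded 1092.06 units on at least 3 of the 15 arrays, and where several of its probe sets were tested the brightest stood for it. The fit was limma's, with p-values adjusted by Benjamini-Hochberg over all probe sets tested and a threshold of 0.05, and "rose" and "fell" mean past it. Errors are SD of 3 arrays beside signals and SE of the fit beside log2 differences. Of 10 fibroblast marker genes 9 were tested, and their summed signal ran from 105856 to 140582 units in vector, 86808 to 111698 in C/EBPα, 128605 to 185192 in C/EBPβ, 103551 to 109321 in C/EBPδ and 108968 to 141937 in C/EBPε. Vim, which encodes the filament protein vimentin of fibroblasts, lay under the filter. Hepatocyte markers (0 of 4 tested), the keratins Krt8, Krt18 and Krt19, the fat cell genes Adipoq and Fabp4 and the leucocyte gene Ptprc were under it too. Of 5 macrophage markers 3 were tested. Cd68 fell in C/EBPα, C/EBPβ and C/EBPε cells. Lyz2 rose in C/EBPα cells, but it exceeded the filter on the 3 C/EBPα arrays alone. It was thus tested only through the group where it is high. The summed signal of the 3 markers was 8700 to 9305 units in vector and 6583 to 9773 over the C/EBP groups. The largest part in vector was Csf1r, at 5269 ± 336 units. Another probe set of Csf1r lay under the filter, at 531.5 ± 208 units in vector. Of the fat cell markers, 2 of 4 on the array were tested. Their sum was 3650 to 4164 units in vector, 6959 to 7767 in C/EBPα and 3530 to 5634 in the other 3 C/EBP groups. Pparg, the nuclear receptor of fat cell differentiation, was at the floor of 189.652 units on all 3 vector arrays and at 2983 ± 324 in C/EBPα. It too exceeded the filter on the 3 C/EBPα arrays alone, and so entered the sum through the group where it is high. The rest of the sum was Lep, at 3836 ± 229 units in vector. Another probe set of Lep lay under the filter, at 637.3 ± 155 units in vector. Among the fibroblast markers Thy1 fell in C/EBPα, Col1a1, Col3a1 and Pdgfrb rose in C/EBPβ and Col3a1 rose in C/EBPε. Cdh1, the epithelial cadherin, was the tested one of 5 epithelial markers, at 2439 to 3406 units in vector and 2033 to 3334 over the C/EBP groups. The part of these markers in the carriers' differences was not tested.

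Most solute carrier genes did not pass the test in any group. Against vector, 18 of the 92 passed in at least 1 C/EBP, 13 of them lower and 5 higher; that is 19.6% of the members, against 22.5% of all genes tested. In C/EBPα cells 3 members rose and 11 fell, which is 3.26% and 12% of those tested; over all genes tested the shares were 7.46% and 7.32%. In C/EBPβ cells 3 rose and 6 fell (3.26% and 6.52%, against 5.34% and 4.29% of all genes). In C/EBPε cells 5 rose and 10 fell (5.43% and 10.9%, against 9.89% and 6.86%). No member was called in C/EBPδ cells, where 0.356% of all genes were called higher and 0% lower by the same limma fit. At an unadjusted p under 0.05, 3 members were higher and 2 lower in C/EBPδ cells, 5.43% of those tested against 6.44% of all genes, and with array weights 2 passed the adjusted test. The median log2 difference over the members was -0.04 in C/EBPα, -0.03 in C/EBPβ, -0.004 in C/EBPδ and -0.02 in C/EBPε, beside 0.01, 0.04, 0.01 and 0.08 over all genes tested.

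These counts depended on single arrays. Vector replicate 2 gave the highest of the 3 vector signals for 11 of the 13 members called lower, for 47 of the 92 tested (51.1%) and for 59.7% of all genes tested. Without it the members called lower were 6 in C/EBPα, 2 in C/EBPβ and 5 in C/EBPε, and the totals were 9, 7 and 12. Leaving out C/EBPα replicate 2 also left 9 called in C/EBPα, and leaving out C/EBPε replicate 3 left 9 in C/EBPε. The members called higher in C/EBPε were 3 without vector replicate 3 or without C/EBPε replicate 2, and those called lower were 6 without C/EBPε replicate 1. In C/EBPβ, 3 were called lower without C/EBPβ replicate 2, and 5 higher without vector replicate 2. Of the 38 calls (a member in a C/EBP group), 17 held in every alternative fit and without each array in turn, and none changed sign. The 4 comparisons share the vector arrays, so they are not independent of each other.

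**Figure D1:**
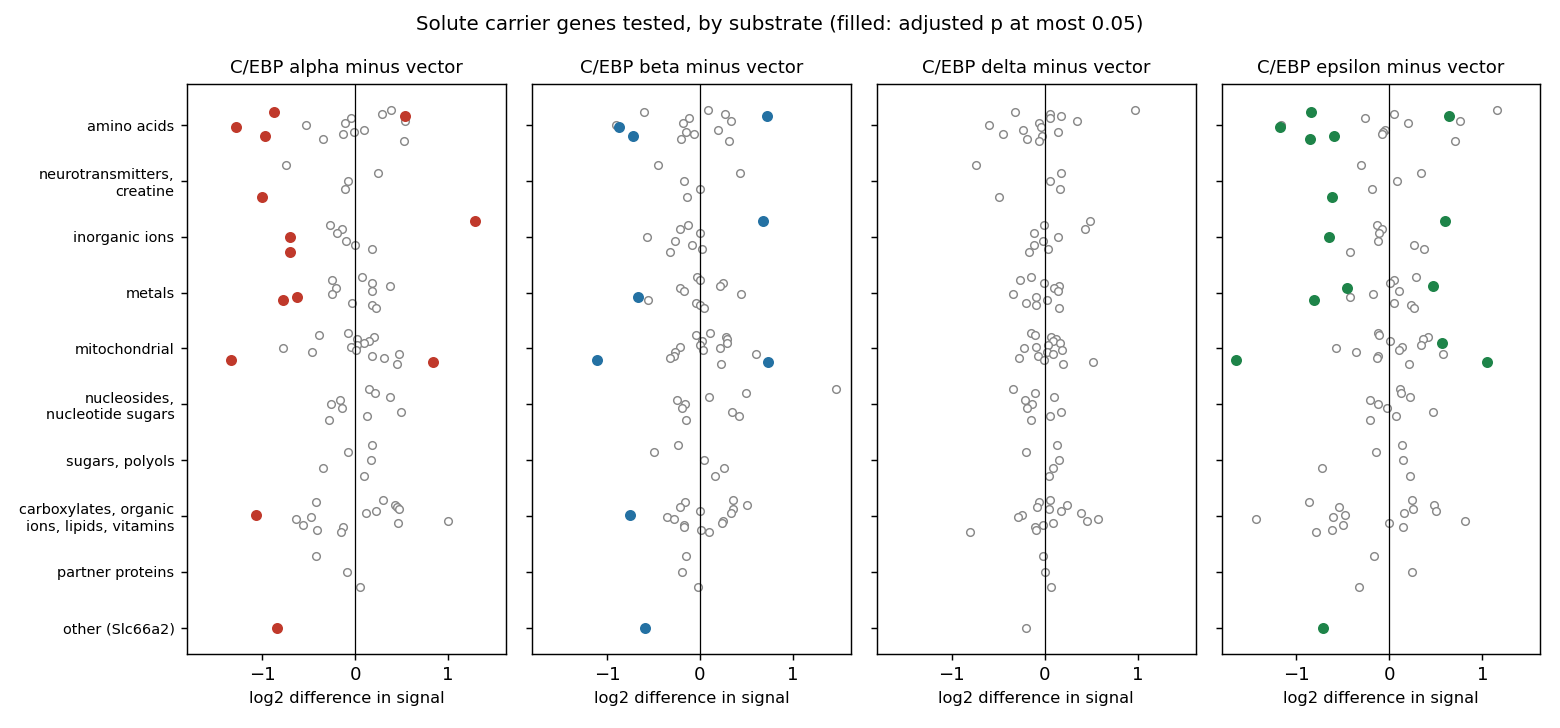
Log2 difference in signal from vector (x axis) of the 92 solute carrier genes tested, by substrate class (rows) and C/EBP (panels); each point is a gene, filled where its adjusted p was at most 0.05. Filled points are 14 in C/EBPα, 9 in C/EBPβ, 0 in C/EBPδ and 15 in C/EBPε, and the rows of sugars, nucleosides and partner proteins hold none.

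Of the carriers of amino acids 5 of 15 tested were called in at least 1 C/EBP, 33.3% against 22.5% of all genes; the carriers of inorganic ions and of metals below had the same share. Slc3a2, Slc1a4 and Slc6a9 fell in C/EBPα cells, Slc3a2 and Slc6a9 in C/EBPβ cells, and those 3 with Slc7a5 in C/EBPε cells, while Slc38a10 rose in all 3. The other 10 tested were not called in any group, among them Slc1a5 and Slc38a2, which import glutamine. The class median was -0.05 in C/EBPα, -0.12 in C/EBPβ, -0.04 in C/EBPδ and -0.07 in C/EBPε on the log2 scale. Members differed in both directions, from -1.28 to 0.54 in C/EBPα and from -1.18 to 1.16 in C/EBPε. The 1.16 was that of Slc1a2, which was not called by the limma fit (SE 0.63, adjusted p = 0.236). Its probe set exceeded the filter on only 3 of the arrays. At an unadjusted p under 0.05 from the limma fit, 3 were higher and 5 lower in C/EBPε, 53.3% against 30.6% of all genes. In C/EBPα, C/EBPβ and C/EBPδ the shares were 33.3%, 26.7% and 6.67%, against 26.5%, 23.4% and 6.44%.

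Promoters of the members were searched because both C/EBPs and ATF4 bind near gene starts. The motifs were TGATGNAA, the core of the composite element of C/EBP and ATF factors, and TTNNGCAA, on both strands. The latter is a pair of C/EBP half-sites with TT and GCAA fixed and the letters between them free. No stretch can match both motifs at the same letters. The windows, from RefSeq on GRCm38.p6, run from 250 bases before a start to 50 after it. They matched 123 of the 149 members. TGATGNAA lay in a window of 6 of the 123 members (4.88%) and of 4.51% of all genes there, and TTNNGCAA in 14 members (11.4%) and 12.2% of all genes. Among the 8 matched members that were called lower it was 2 of 8 for each motif, Slc23a3 counting in both. Among the 4 matched members called higher it was 0 of 4. Over the 77 matched members tested, TGATGNAA lay in 3 (3.9%) and TTNNGCAA in 7 (9.09%). Slc50a1 held the first motif and was not called in any group. Slc1a2, Slc25a25, Slc38a5, Slc39a3 and Slc3a1 held the second and were not called either. A match is a description of letters and does not show binding. Below are the stretches of the 3 matched members that fell, with the motif matches in capitals, and that of Slc3a2, the amino acid carrier with the largest called falls, which had no match in its window.
Slc3a2, chr19:8713898-8714047, minus strand, bases -150 to -1: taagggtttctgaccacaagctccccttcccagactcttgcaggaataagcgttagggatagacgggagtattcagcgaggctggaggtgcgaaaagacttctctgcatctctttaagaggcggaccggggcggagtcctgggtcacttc
Slc1a4, chr11:20332704-20332813, minus strand, bases -100 to 10: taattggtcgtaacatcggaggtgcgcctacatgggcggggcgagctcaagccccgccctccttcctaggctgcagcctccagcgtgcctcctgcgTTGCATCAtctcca
Slc6a9, chr4:117849120-117849219, plus strand, bases -230 to -131 of 1 of its 3 starts: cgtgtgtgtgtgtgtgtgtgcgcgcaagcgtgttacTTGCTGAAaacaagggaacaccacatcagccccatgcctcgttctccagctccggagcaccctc
Slc23a3, chr1:75133981-75134080, minus strand, bases -190 to -91: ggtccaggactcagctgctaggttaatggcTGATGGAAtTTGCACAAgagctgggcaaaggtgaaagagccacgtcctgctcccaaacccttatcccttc
In Slc1a4 the composite core lies on the reverse strand and spans the start from base -4, and in Slc6a9 the C/EBP letters lie on the reverse strand from -194. Slc23a3 holds both motifs side by side, the composite core from -160 and the C/EBP letters from -151.

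Slc3a2 encodes the heavy chain CD98, which carries several light chains of the Slc7 family to the cell surface. Its signal was 26590, 39090 and 25100 units on the vector arrays, 11980, 11880 and 12680 in C/EBPα, 15050, 16420 and 17470 in C/EBPβ, 25830, 34780 and 26840 in C/EBPδ, and 11510, 15660 and 12400 in C/EBPε. All arrays of C/EBPα, C/EBPβ and C/EBPε lay under all of vector and C/EBPδ. The fall was 2.44-fold in C/EBPα (log2 -1.28, SE 0.17, adjusted p = 4.89e-05), 1.82-fold in C/EBPβ (log2 -0.87, adjusted p = 0.00354) and 2.27-fold in C/EBPε (log2 -1.18, adjusted p = 0.000131). These 3 calls held under every alternative and without each array. In C/EBPδ cells the difference was -0.04, with a 95% interval of -0.40 to 0.32.

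Slc7a5, or LAT1, is the light chain that pairs with Slc3a2 to import leucine and other large neutral amino acids. It read 12900, 14650 and 11410 units in vector, 10290, 9588 and 10620 in C/EBPα, 10050, 11980 and 11880 in C/EBPβ, 12300, 9650 and 12350 in C/EBPδ, and 6984, 7122 and 7422 in C/EBPε. The C/EBPε arrays stood below all others. Slc7a5 fell 1.80-fold there (log2 -0.85, SE 0.13, adjusted p = 0.000274), and the call held in every alternative fit and without each array. In C/EBPα it was -0.35 (adjusted p = 0.0939), with its arrays under all vector arrays, and in C/EBPβ and C/EBPδ -0.20 and -0.19, with arrays that overlapped those of vector.

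Slc1a4, or ASCT1, exchanges alanine, serine and cysteine. It read 6916, 8986 and 6061 units in vector, 4298, 3398 and 4246 in C/EBPα, 5297, 3286 and 6265 in C/EBPβ, 5701, 6604 and 5193 in C/EBPδ, and 3424, 4642 and 4127 in C/EBPε. The C/EBPα and C/EBPε arrays lay under all vector arrays, and those of C/EBPβ and C/EBPδ overlapped them. It fell 1.82-fold in C/EBPα (log2 -0.87, SE 0.21, adjusted p = 0.0098) and 1.79-fold in C/EBPε (log2 -0.84, adjusted p = 0.0122). The C/EBPα call was lost without vector replicate 2 (adjusted p = 0.0519) or C/EBPα replicate 2 (0.0526), and the C/EBPε call without vector replicate 2 (0.051) or without the 5 arrays numbered 1 (0.106). In C/EBPβ the difference was -0.60 (adjusted p = 0.0931).

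Slc6a9 encodes GLYT1, a sodium-driven importer of glycine. Its arrays read 6763, 6360 and 5164 units in vector, 4570, 2374 and 2718 in C/EBPα, 3898, 3277 and 3890 in C/EBPβ, 5896, 5515 and 6406 in C/EBPδ, and 4119, 4239 and 3701 in C/EBPε. Every array of C/EBPα, C/EBPβ and C/EBPε was under every vector and C/EBPδ array. It fell 1.96-fold in C/EBPα (log2 -0.97, SE 0.19, adjusted p = 0.00217), which held without each array. The falls in C/EBPβ (log2 -0.72, adjusted p = 0.0267) and C/EBPε (log2 -0.59, adjusted p = 0.0457) were less secure. That in C/EBPβ was lost without vector replicate 1 (0.0982) or 2 (0.0653), without C/EBPβ replicate 2 (0.102) or 3 (0.0619), with no filter (0.0766) and without the arrays numbered 1 (0.0576). That in C/EBPε was lost in 10 of the 15 fits with an array left out: without vector replicates 1 and 2, C/EBPβ replicates 1 and 3, and each C/EBPδ and C/EBPε array, the highest adjusted p being 0.146. It was lost too with no filter (0.11), with no trend in the variance (0.0659) and without the arrays numbered 1 (0.0953).

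Slc38a10 belongs to the family of sodium-coupled neutral amino acid carriers and was the member of this class that rose. It read 2926, 3472 and 2481 units in vector, 3854, 4891 and 4102 in C/EBPα, 4422, 5273 and 4814 in C/EBPβ, 3230, 3436 and 3266 in C/EBPδ, and 4243, 5019 and 4533 in C/EBPε. The arrays of C/EBPα, C/EBPβ and C/EBPε lay above all vector and C/EBPδ arrays. The rise was 1.45-fold in C/EBPα (log2 0.54, SE 0.14, adjusted p = 0.0165), 1.65-fold in C/EBPβ (log2 0.72, adjusted p = 0.00404) and 1.56-fold in C/EBPε (log2 0.65, adjusted p = 0.00512). Without vector replicate 3 (0.0925) or C/EBPα replicate 2 (0.0824) the call in C/EBPα was lost, as it was without the arrays numbered 1 (0.0718) and with only the vector and C/EBPα arrays in the fit (0.0683). The other 2 calls held in every alternative fit and without each array.

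**Figure D2:**
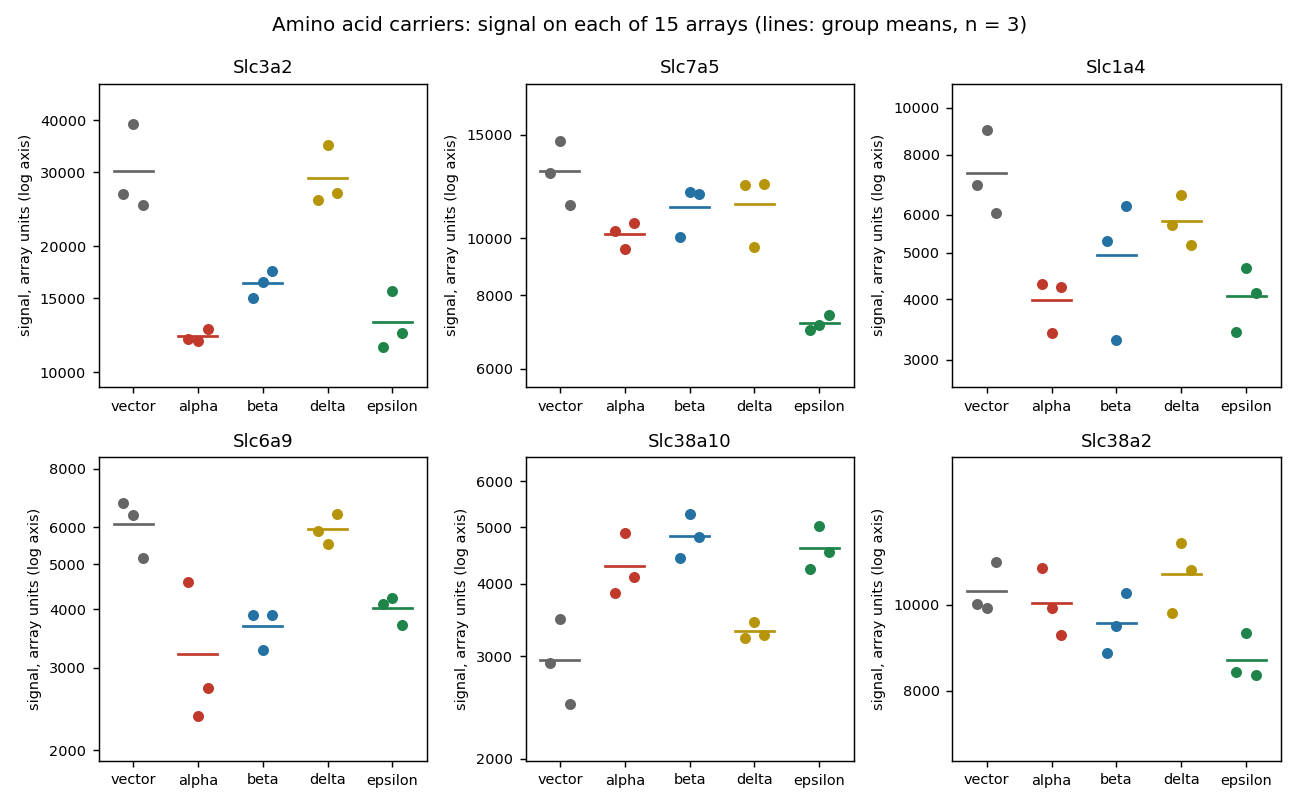
Signal in array units (log axis) of 6 amino acid carrier genes on each of the 15 arrays, by group; points are arrays and lines are means of 3. Slc3a2 and Slc6a9 read lower on every C/EBPα, C/EBPβ and C/EBPε array than on any vector or C/EBPδ array, Slc7a5 lowest in C/EBPε, Slc38a10 higher in the same 3 groups, and Slc38a2, not called in any group, has C/EBPε arrays that overlap those of C/EBPα and C/EBPβ but not those of vector and C/EBPδ.

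The list of carriers known as ATF4 targets had 9 members on the array and 6 tested. Of the 6, 3 fell in C/EBPα, 2 in C/EBPβ, 0 in C/EBPδ and 4 in C/EBPε, and none rose. Over all genes tested 7.32%, 4.29%, 0% and 6.86% were called lower. The median log2 differences of the 6 were -0.61, -0.40, -0.03 and -0.72, against 0.01, 0.04, 0.01 and 0.08 over all genes. The members that fell are those given above. Slc38a2, or SNAT2, importer of small neutral amino acids, had 10360 ± 691 units in vector, 10050 in C/EBPα, 9533 in C/EBPβ, 10810 in C/EBPδ and 8671 in C/EBPε; its difference in C/EBPε was -0.26 (adjusted p = 0.156), with an interval from -0.51 to -0.01. Slc1a5, or ASCT2, the main glutamine carrier of many cultured cells, averaged 3057 units in vector, 3720 in C/EBPα, 3703 in C/EBPβ, 3191 in C/EBPδ and 3172 in C/EBPε and was not called. Slc7a11, the light chain xCT of the cystine importer, lay under the filter and is named here after its values were seen. It read 524, 641.7 and 434.6 units in vector, 289.2, 82.89 and 121.8 in C/EBPα, 153.8, 184.8 and 277.6 in C/EBPβ, 584.7, 606.4 and 642.4 in C/EBPδ, and 552.2, 521.3 and 60.42 in C/EBPε. With no filter it was not called.

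Genes of the amino acid response outside the family were read from a list of 25 genes on the array, 23 of them tested. Of these, 11 fell in C/EBPα, 9 in C/EBPβ, 0 in C/EBPδ and 15 in C/EBPε, and none rose. The shares called lower over all genes tested were 7.32%, 4.29%, 0% and 6.86%. The medians of the list were -0.52, -0.36, -0.11 and -0.75, beside 0.01, 0.04, 0.01 and 0.08 over all genes. Atf3 was counted by its brighter probe set, called in no group (log2 -0.16 in C/EBPα and -0.30 in C/EBPε). Its other tested probe set fell in C/EBPα (log2 -1.69, adjusted p = 0.00339) and C/EBPε (log2 -1.13, adjusted p = 0.0398). That probe set was not called in C/EBPβ or C/EBPδ. Ddit3, the C/EBP family member CHOP, went from 10870 ± 1580 units in vector to 2453 ± 726 in C/EBPα, 4539 ± 414 in C/EBPβ, 10080 ± 1060 in C/EBPδ and 2423 ± 65.1 in C/EBPε. Asns, the asparagine synthetase, fell in C/EBPα (log2 -0.60, adjusted p = 0.00194) and C/EBPε (log2 -0.93, adjusted p = 4.15e-05), and read -0.26 in C/EBPβ (adjusted p = 0.196). Psph, which makes serine, fell in C/EBPα, C/EBPβ and C/EBPε by 1.38, 0.69 and 1.46 on the log2 scale. The count in C/EBPβ was 4 without the arrays numbered 1 and 5 without vector replicate 2, the array on which many falling members also read highest. The carriers and these genes were measured on the same arrays, so they share the vector signals.

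**Figure D3:**
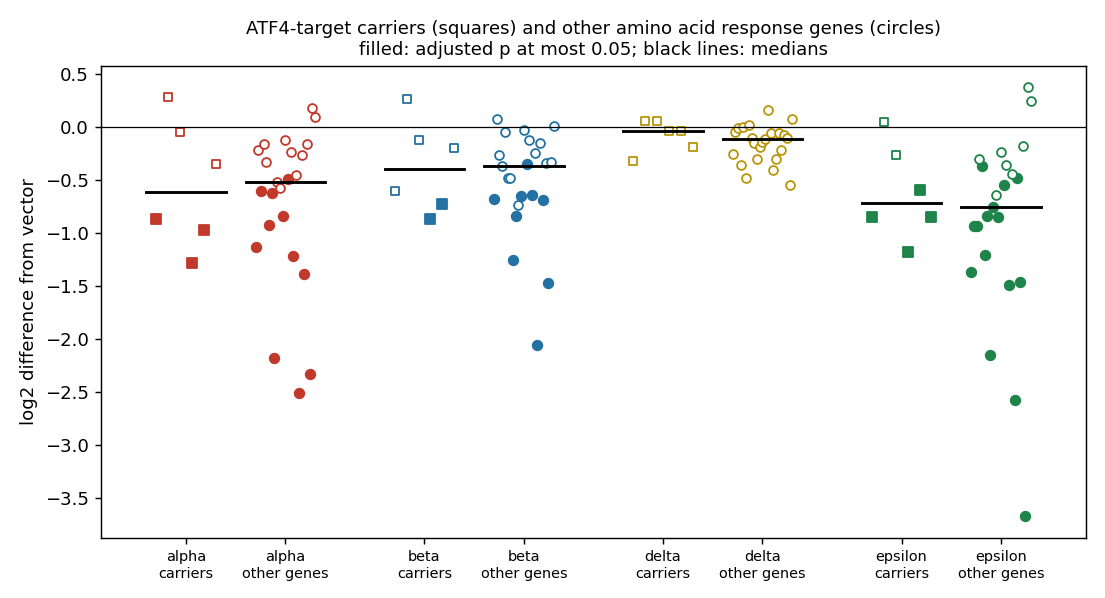
Log2 difference from vector (y axis) of the 6 tested carriers of the ATF4 list (squares) and of the 23 tested amino acid response genes outside the family (circles), by C/EBP; points are genes, filled where the adjusted p was at most 0.05, and black lines are medians. Filled squares number 3, 2, 0 and 4 and filled circles 11, 9, 0 and 15 in C/EBPα, C/EBPβ, C/EBPδ and C/EBPε. All filled points are falls, and 7.32%, 4.29%, 0% and 6.86% of all genes tested were called lower.

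Among the carriers of inorganic ions, 9 of 22 were tested and 3 were called in at least 1 C/EBP (33.3%, against 22.5% of all genes). Slc12a2 encodes NKCC1, which brings sodium, potassium and chloride into the cell together and helps restore cell volume. It read 6374, 8320 and 6355 units in vector, 17790, 15760 and 17500 in C/EBPα, 10420, 10700 and 12540 in C/EBPβ, 8541, 10660 and 10160 in C/EBPδ, and 9456, 11340 and 10800 in C/EBPε. Every array of every C/EBP group was above all vector arrays, and the C/EBPα arrays were above all others. The rise was 2.44-fold in C/EBPα (log2 1.29, SE 0.14, adjusted p = 5.62e-06), 1.61-fold in C/EBPβ (log2 0.68, adjusted p = 0.00435) and 1.51-fold in C/EBPε (log2 0.59, adjusted p = 0.00715), and these calls held in every alternative fit and without each array. In C/EBPδ it was 0.49 (adjusted p = 0.298), with a 95% interval of 0.19 to 0.78 before adjustment over the probe sets, and with array weights it passed (adjusted p = 0.0153).

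Slc20a1, or PiT-1, imports phosphate with sodium. Its arrays read 6445, 9457 and 6195 units in vector, 4439, 4395 and 4513 in C/EBPα, 5109, 4103 and 5486 in C/EBPβ, 9561, 8751 and 6148 in C/EBPδ, and 4513, 5342 and 4017 in C/EBPε. All arrays of C/EBPα, C/EBPβ and C/EBPε lay under all vector and C/EBPδ arrays. It fell 1.62-fold in C/EBPα (log2 -0.70, SE 0.19, adjusted p = 0.018) and 1.57-fold in C/EBPε (log2 -0.65, adjusted p = 0.0247), and in C/EBPβ it was -0.57 (adjusted p = 0.0693). The call in C/EBPα was lost without vector replicate 2 (0.0895) or C/EBPα replicate 2 (0.0537), and that in C/EBPε without vector replicate 2 (0.104), C/EBPε replicate 1 (0.0549) or C/EBPε replicate 3 (0.106). Both were lost with no filter (0.0578 and 0.071) and without the arrays numbered 1 (0.0641 and 0.0826), and the latter with only its own and the vector arrays in the fit (0.0635).

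Slc9a8, a sodium-proton exchanger of the Golgi, fell in C/EBPα from 2428 ± 660 to 1473 ± 259 units (log2 -0.70, adjusted p = 0.0317). It was 1906 ± 163 in C/EBPβ, 2143 ± 459 in C/EBPδ and 1773 ± 203 in C/EBPε, none of them called. Without vector replicate 2 (0.147) or C/EBPα replicate 2 (0.0547) or 3 (0.144) the call was lost, as it was with no filter (0.0707), without the arrays numbered 1 (0.0524) and with only the vector and C/EBPα arrays in the fit (0.0684). The other 6 of the class, among them the chloride-bicarbonate exchanger Slc4a2 and the potassium-chloride cotransporter Slc12a4, were not called in any group.

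The mitochondrial carriers of the Slc25 family were well covered, with 17 of 20 tested, and 3 were called in at least 1 C/EBP (17.6%, against 22.5% of all genes). Slc25a47, a carrier known mostly from liver, had the lowest log2 difference of the 92 tested members in C/EBPα, in C/EBPβ and in C/EBPε. It read 1831, 2539 and 2609 units in vector, 849.4, 746.9 and 1196 in C/EBPα, 1238, 1079 and 905.8 in C/EBPβ, 2378, 2545 and 1995 in C/EBPδ, and 1230, 675.8 and 472.7 in C/EBPε. The arrays of C/EBPα, C/EBPβ and C/EBPε lay under all of vector and C/EBPδ, and some of them were below the level used as the filter. The fall was 2.52-fold in C/EBPα (log2 -1.33, SE 0.30, adjusted p = 0.00546), 2.16-fold in C/EBPβ (log2 -1.11, adjusted p = 0.0272) and 3.14-fold in C/EBPε (log2 -1.65, adjusted p = 0.00115). In C/EBPδ it was -0.002, with a 95% interval of -0.63 to 0.63. The call in C/EBPβ was lost without vector replicate 2 (0.0749) or 3 (0.11) and without C/EBPβ replicate 2 (0.0681) or 3 (0.111), and with no filter (0.0779).

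Slc25a5 encodes ANT2, which exchanges ADP for ATP across the inner mitochondrial membrane. Its brighter probe set, of a type that Affymetrix marked as shared within a sequence family, read 3074, 3563 and 3730 units in vector, 6828, 5969 and 5711 in C/EBPα, 6482, 4940 and 5811 in C/EBPβ, 4866, 4904 and 5073 in C/EBPδ, and 7924, 6528 and 6967 in C/EBPε. All C/EBP arrays were above all vector arrays. By it Slc25a5 rose 1.79-fold in C/EBPα (log2 0.84, SE 0.13, adjusted p = 0.000304), 1.66-fold in C/EBPβ (log2 0.73, adjusted p = 0.00201) and 2.07-fold in C/EBPε (log2 1.05, adjusted p = 4.15e-05), and was 0.52 in C/EBPδ (adjusted p = 0.184, and 0.0251 with array weights). The gene's other tested probe set gave 0.20, -0.02, -0.18 and 0.49, called in no group, and with the mean of both the call in C/EBPβ was lost (adjusted p = 0.115), as it was without the arrays numbered 1 (0.073). The probe sets thus disagree in sign in C/EBPβ and C/EBPδ and in size and call in C/EBPα and C/EBPε, and a signal from the related Slc25a4 or from pseudogenes cannot be told apart from that of Slc25a5 in a shared probe set. Slc25a4 itself, or ANT1, averaged 20580 units in vector, 28190 in C/EBPα, 31280 in C/EBPβ, 21800 in C/EBPδ and 30680 in C/EBPε and was not called (adjusted p = 0.145, 0.0691, 0.996 and 0.0617).

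Slc25a20 exchanges carnitine and acylcarnitine and so lets fatty acids enter mitochondria for oxidation. It rose in C/EBPε, from 1383, 1607 and 1433 units in vector to 2155, 2111 and 2270 (1.48-fold, log2 0.57, SE 0.17, adjusted p = 0.0309). The C/EBPε arrays were above all vector arrays. The group means elsewhere were 1585 ± 250 in C/EBPα, 1823 ± 283 in C/EBPβ and 1650 ± 155 in C/EBPδ, none called. The call was lost without vector replicate 1 (0.0983) or 3 (0.087) and without any of the 3 C/EBPε arrays (0.0601, 0.0603 and 0.0924), as well as without the arrays numbered 1 (0.19) and with only the vector and C/EBPε arrays in the fit (0.078).

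**Figure D4:**
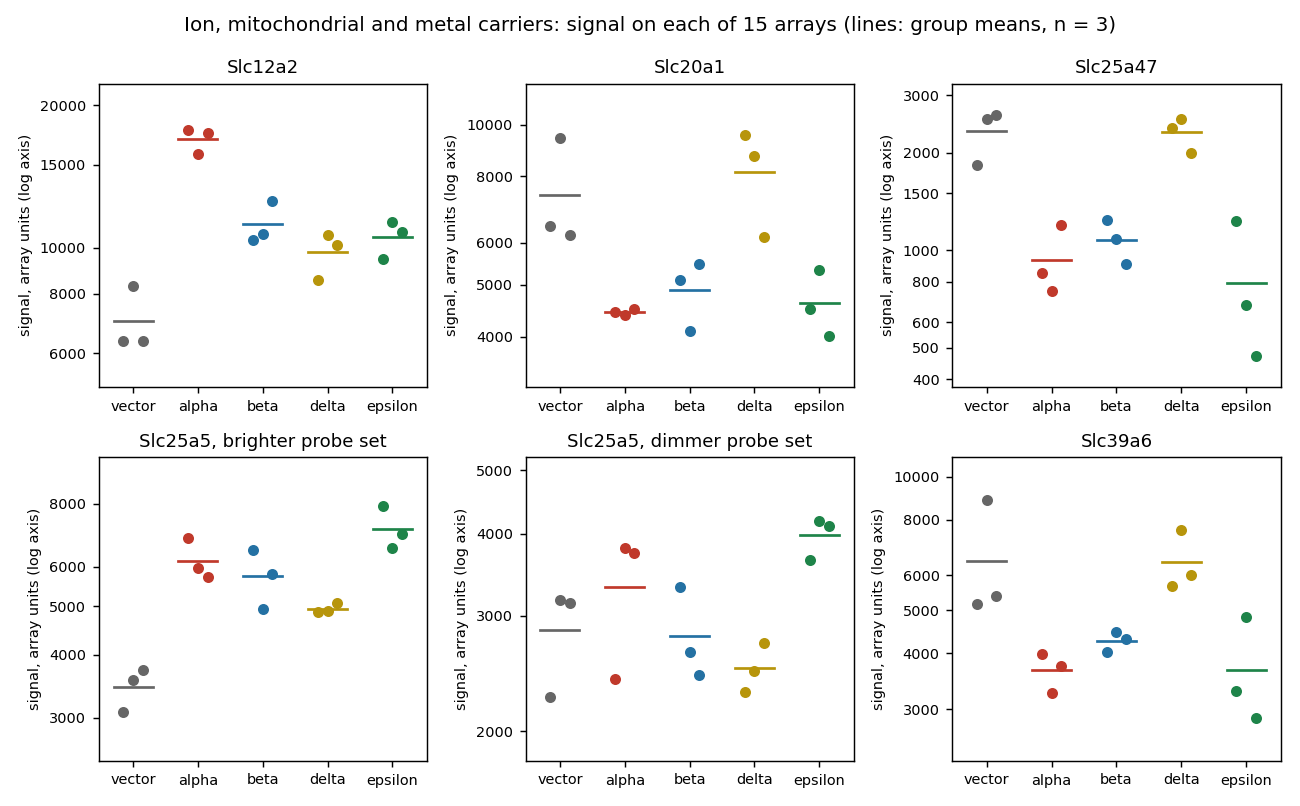
Signal in array units (log axis) of 5 carrier genes on each of the 15 arrays, with Slc25a5 shown by both of its tested probe sets; points are arrays and lines are means of 3. Slc12a2 is highest in C/EBPα, Slc25a47 and Slc20a1 are lower on all C/EBPα, C/EBPβ and C/EBPε arrays than in vector and C/EBPδ, and the second probe set of Slc25a5, called in no group, differs from the vector by -0.02 in C/EBPβ and -0.18 in C/EBPδ, where the brighter one gives 0.73 and 0.52.

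Of the carriers of metals 12 of 13 were tested, and 4 were called in at least 1 C/EBP (33.3%, against 22.5% of all genes). All cultures, vector included, had been given zinc. Slc39a6, the zinc importer ZIP6, read 5171, 8835 and 5394 units in vector, 3988, 3264 and 3752 in C/EBPα, 4028, 4465 and 4303 in C/EBPβ, 5665, 7580 and 6021 in C/EBPδ, and 3297, 4831 and 2867 in C/EBPε. The arrays of C/EBPα, C/EBPβ and C/EBPε were under all those of vector and C/EBPδ. It fell 1.72-fold in C/EBPα (log2 -0.78, SE 0.21, adjusted p = 0.0178) and 1.75-fold in C/EBPε (log2 -0.81, adjusted p = 0.0136), with -0.56 in C/EBPβ (adjusted p = 0.113). Vector replicate 2 was far above its fellows, and without it the calls were lost (0.0893 and 0.0584), as they were without C/EBPα replicate 2 (0.0752) and C/EBPε replicate 3 (0.0737), respectively. With no filter both were lost (0.0649 and 0.0509), and with only the vector and C/EBPε arrays in the fit the latter was (0.0686).

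Slc39a4, the zinc importer ZIP4 of the gut, was read by a probe set whose selection rules Affymetrix had relaxed, and fell from 9033 ± 2180 units in vector to 5779 ± 505 in C/EBPα (log2 -0.62, adjusted p = 0.0331) and 5667 ± 1010 in C/EBPβ (log2 -0.66, adjusted p = 0.0335). It was 8414 ± 1520 in C/EBPδ and 6664 ± 942 in C/EBPε, not called. Its other probe set lay under the filter, at 470.2 ± 83.1 units in vector. Both calls were lost without vector replicate 2 (0.146 and 0.124), the first also without C/EBPα replicate 1 (0.0917) or 3 (0.104), the second also without C/EBPβ replicate 2 (0.152) or 3 (0.0638). Both were lost with no filter (0.0922 and 0.0898) and with no trend (0.054 and 0.0561), the first without the arrays numbered 1 (0.0755) and the second with only its own and the vector arrays in the fit (0.0827).

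In C/EBPε cells Slc31a1, the copper importer CTR1, fell from 8558, 9683 and 7104 units to 5776, 6607 and 5999 (log2 -0.45, SE 0.14, adjusted p = 0.0371). Its second probe set gave -0.22 (adjusted p = 0.394), and the call was lost without vector replicate 1 (0.0974) or 2 (0.124) and without C/EBPε replicate 1 (0.0951) or 3 (0.101). It was lost too with no filter (0.0562), with no trend (0.0544), without the arrays numbered 1 (0.223), with the mean of both probe sets (0.115) and with only the vector and C/EBPε arrays in the fit (0.105). Slc30a9, of the zinc transporter family, rose in C/EBPε from 2506 ± 177 to 3475 ± 63.7 units (log2 0.47, adjusted p = 0.0255). This call was lost without vector replicate 3 (0.101) and without any C/EBPε array (0.0554, 0.0671 and 0.0575), under quantile normalization (0.0547), without the arrays numbered 1 (0.109) and with only the vector and C/EBPε arrays in the fit (0.0793). The zinc importers Slc39a1 and Slc39a7 and the zinc exporters Slc30a4 and Slc30a5 were tested and not called in any group.

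The class of neurotransmitter and creatine carriers had 5 of 9 tested and 1 called (20%, against 22.5% of all genes). Slc6a8 imports creatine, the store of phosphate for rapid energy supply, and read 2715, 4205 and 3927 units in vector, 1977, 1595 and 1783 in C/EBPα, 2968, 3967 and 2861 in C/EBPβ, 2814, 2761 and 2069 in C/EBPδ, and 2094, 2759 and 2148 in C/EBPε. The C/EBPα arrays lay under all others, while those of C/EBPβ, C/EBPδ and C/EBPε overlapped vector. It fell in C/EBPα (log2 -0.998, SE 0.20, adjusted p = 0.0019), which held in every alternative fit and without each array. The fall in C/EBPε (log2 -0.62, adjusted p = 0.0397) was lost without vector replicate 2 (0.132) or 3 (0.137) and without C/EBPε replicate 1 (0.107) or 3 (0.121). It was lost too with no filter (0.0891), with no trend (0.0517), without the arrays numbered 1 (0.0558) and with only its own and the vector arrays in the fit (0.0902). Slc6a13, the GABA carrier GAT2, was next in the class by the test over 5 groups and was not called (1516 ± 106 units in vector, 934.6 ± 266 in C/EBPα, log2 -0.74, adjusted p = 0.279).

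Of the carriers of carboxylates, organic ions, lipids and vitamins 16 of 33 were tested and Slc23a3, a relative of the vitamin C carriers, was the member called (6.25%, against 22.5% of all genes). It read 2444, 3343 and 2006 units in vector, 1250, 1295 and 1108 in C/EBPα, 1418, 1452 and 1658 in C/EBPβ, 2227, 2109 and 2109 in C/EBPδ, and 1885, 1624 and 2004 in C/EBPε. All C/EBPα, C/EBPβ and C/EBPε arrays were under all vector arrays. It fell 2.09-fold in C/EBPα (log2 -1.06, SE 0.18, adjusted p = 0.00056) and 1.69-fold in C/EBPβ (log2 -0.75, adjusted p = 0.0138), with -0.47 in C/EBPε (adjusted p = 0.087). Its second tested probe set, of the relaxed type, gave 0.19, -0.15, -0.28 and 0.43 and was called in no group; with the mean of both, neither call was kept (adjusted p = 0.137 in C/EBPα and 0.143 in C/EBPβ). The C/EBPβ call was also lost without vector replicate 2 (0.0608) or C/EBPβ replicate 1 (0.0512), without the arrays numbered 1 (0.134) and with only the vector and C/EBPβ arrays in the fit (0.0604). Slc44a2, a choline transporter-like protein, followed by the test over 5 groups and was not called, with -0.56 in C/EBPα (adjusted p = 0.0514) and -0.50 in C/EBPε (adjusted p = 0.0733).

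Slc66a2, a membrane protein of the PQ-loop family that falls in no substrate class here, read 5365, 6434 and 5421 units in vector, 3005, 3363 and 3205 in C/EBPα, 3369, 3593 and 4509 in C/EBPβ, 5107, 5331 and 4575 in C/EBPδ, and 3252, 3689 and 3569 in C/EBPε. The groups did not overlap with vector, C/EBPδ least apart from it. It fell 1.79-fold in C/EBPα (log2 -0.84, SE 0.13, adjusted p = 0.000322), 1.51-fold in C/EBPβ (log2 -0.59, adjusted p = 0.00983) and 1.64-fold in C/EBPε (log2 -0.71, adjusted p = 0.0017). The C/EBPβ call was lost without C/EBPβ replicate 1 (0.0521), without the arrays numbered 1 (0.111) and with only the vector and C/EBPβ arrays in the fit (0.0581); the other 2 held throughout.

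The remaining classes held no call. Among the sugar and polyol carriers (5 of 9 tested) Slc2a1, the glucose importer GLUT1, averaged 9449 ± 1460 units in vector, 10660 ± 873 in C/EBPα, 8040 ± 1240 in C/EBPβ, 10310 ± 886 in C/EBPδ and 10430 ± 1990 in C/EBPε. Its 95% interval against vector was -0.15 to 0.52 in C/EBPα and -0.20 to 0.47 in C/EBPε on the log2 scale. Slc37a4, which moves glucose 6-phosphate into the endoplasmic reticulum, was not called either (log2 -0.73, adjusted p = 0.208 in C/EBPε). Among the nucleoside and nucleotide sugar carriers (9 of 12 tested), Slc29a1, the nucleoside carrier ENT1, had 933.4, 3209 and 1266 units in C/EBPβ and 455.3, 1169 and 336 in vector. These overlapped, and the log2 difference of 1.47 was not called (adjusted p = 0.0842). Slc35a1, the Golgi carrier of CMP-sialic acid, reached 0.49 in C/EBPβ (adjusted p = 0.144). Slc9a3r1 and Slc9a3r2, scaffold proteins that bind a sodium-proton exchanger and are not carriers, ranged over the 4 C/EBPs from -0.19 to 0.24 and from -0.33 to 0.07 and were not called.

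Of the 149 members 57 were not tested, and for 51 of them no array exceeded the filter. They included the intestinal sugar carrier Slc5a1, the liver glucose carrier Slc2a2, the bile acid carriers Slc10a1 and Slc10a2, the dopamine carrier Slc6a3 and the kidney cotransporters Slc12a1 and Slc12a3. A probe set under the filter bounds the signal and does not show that a gene was silent. With no filter none of the 57 was called.

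Differences between the C/EBP groups were tested directly. The vector means do not enter these contrasts, but the vector arrays are in the same fit and feed its estimate of the spread. The amount of each C/EBP in its cells was not read here, and its part in these differences was not tested. The F-test among the 4 groups called 10 of the 92 members (10.9%) and 10.2% of all genes, and that among all 5 groups 14 members (15.2%) and 16.8% of all genes. By pair, the shares of members called lay near those of all genes or rested on 1 or 2 members. Of 8 members called between C/EBPδ and C/EBPα (8.70%, against 8.49% of all genes), 7 were higher in C/EBPδ and Slc12a2 lower. Of 8 called between C/EBPε and C/EBPδ (8.70%, against 8.45%), 7 were lower in C/EBPε and Slc25a5 higher. The split by direction was not counted over all genes, so it cannot be called particular to the carriers. Between C/EBPδ and C/EBPβ 4 were called (4.35%, against 4.91%). Fewer separated the other 3 from each other: 2 between C/EBPβ and C/EBPα, 1 between C/EBPε and C/EBPα and 1 between C/EBPε and C/EBPβ, where the shares over all genes were 2.77%, 1.33% and 2.38%. The count of 10 was 4 without C/EBPδ replicate 1, 4 without C/EBPδ replicate 2 and 6 without C/EBPα replicate 3. Without the 5 arrays numbered 1 it was 3, Slc3a2, Slc6a9 and Slc25a47, and of the 24 calls by pair 17 were lost. The 7 that held were Slc3a2, Slc12a2, Slc6a9 and Slc25a47 between C/EBPδ and C/EBPα, Slc3a2 and Slc25a47 between C/EBPε and C/EBPδ, and Slc6a8 between C/EBPβ and C/EBPα.

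Slc3a2 was 2.37-fold higher in C/EBPδ than in C/EBPα (log2 1.25, SE 0.17, adjusted p = 0.00013), 1.77-fold higher than in C/EBPβ (log2 0.83, adjusted p = 0.00762) and 2.21-fold higher than in C/EBPε (log2 difference of C/EBPε from C/EBPδ -1.14, adjusted p = 0.000302). Without C/EBPδ replicate 2 the difference from C/EBPβ was just past the threshold on the other side (adjusted p = 0.0504), as it was without the arrays numbered 1 (0.0544). Between C/EBPε and C/EBPα it was 0.10, with a 95% interval of -0.26 to 0.46. Slc25a47 was higher in C/EBPδ than in C/EBPα (log2 1.33, SE 0.30, adjusted p = 0.00889), C/EBPβ (log2 1.11, adjusted p = 0.042) and C/EBPε (-1.65 for C/EBPε against C/EBPδ, adjusted p = 0.0019). The difference from C/EBPβ was lost in 8 of the 15 fits with an array left out: vector replicate 3, C/EBPα replicate 1 and each C/EBPβ and C/EBPδ array, up to an adjusted p of 0.154, and also with no filter (0.115) and without the arrays numbered 1 (0.081).

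Slc12a2 read highest in C/EBPα: it was 1.52-fold lower in C/EBPβ (log2 -0.60, SE 0.14, adjusted p = 0.0197), 1.74-fold lower in C/EBPδ (log2 -0.80, adjusted p = 0.00108) and 1.62-fold lower in C/EBPε (log2 -0.69, adjusted p = 0.014). The difference between C/EBPβ and C/EBPα was lost without C/EBPα replicate 1 (0.0702) or 3 (0.0846) or C/EBPβ replicate 1 (0.0962) or 2 (0.0879), and that between C/EBPε and C/EBPα without C/EBPα replicate 1 (0.0568) or 3 (0.0655) or C/EBPε replicate 1 (0.0683) or 3 (0.0544). Without the arrays numbered 1 both were lost (0.188 and 0.205). The difference from C/EBPδ held in every alternative fit and without each array. Slc7a5 read lowest in C/EBPε, where it was 1.57-fold lower than in C/EBPβ (log2 -0.65, SE 0.13, adjusted p = 0.0109) and 1.58-fold lower than in C/EBPδ (log2 -0.66, adjusted p = 0.00383), and not called against C/EBPα (log2 -0.50, adjusted p = 0.0821). Its difference from C/EBPβ was lost without C/EBPβ replicate 2 (0.0553) or 3 (0.0692), and without the arrays numbered 1 both differences were (0.084 from C/EBPβ and 0.0715 from C/EBPδ).

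Slc20a1 was higher in C/EBPδ than in C/EBPα (log2 0.85, adjusted p = 0.00834), than in C/EBPβ (log2 0.72, adjusted p = 0.0358) and than in C/EBPε (C/EBPε against C/EBPδ -0.80, adjusted p = 0.0131). Its F-test call was lost without C/EBPδ replicate 1 (0.116) or 2 (0.101), as were the differences from C/EBPβ (0.161 and 0.136) and from C/EBPε (0.0671 and 0.0574). The difference from C/EBPβ also needed each C/EBPβ array (up to 0.164 without replicate 2), and that from C/EBPε needed C/EBPε replicate 3 (0.0708). Without the arrays numbered 1 all of these were lost (0.205 for the F-test, and 0.111, 0.249 and 0.142 against C/EBPα, C/EBPβ and C/EBPε); with no filter the F-test call (0.0673) and the difference from C/EBPβ (0.104) were lost, and with no trend the latter (0.0611). Slc6a9 (log2 0.94, adjusted p = 0.0048), Slc66a2 (log2 0.65, adjusted p = 0.00537) and Slc23a3 (log2 0.82, adjusted p = 0.0079) were higher in C/EBPδ than in C/EBPα, differences that held without each single array. Without the arrays numbered 1 those of Slc66a2 (0.0835) and Slc23a3 (0.0926) were lost, and with the mean of its probe sets Slc23a3 gave 0.17 (adjusted p = 0.662). Slc66a2 was also higher in C/EBPδ than in C/EBPε (C/EBPε against C/EBPδ -0.51, adjusted p = 0.0252), a call lost without C/EBPδ replicate 1 (0.0753) or 2 (0.0979) or C/EBPε replicate 1 (0.0736) or 3 (0.0677), or without the arrays numbered 1 (0.188).

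Slc39a6 was higher in C/EBPδ than in C/EBPα (log2 0.80, adjusted p = 0.0232) and C/EBPε (C/EBPε against C/EBPδ -0.83, adjusted p = 0.0198). Without C/EBPδ replicate 2 both were lost (0.113 and 0.0916), as without C/EBPδ replicate 3 (0.0556 and 0.0502); the first also needed C/EBPα replicates 2 (0.0991) and 3 (0.0607), the second C/EBPε replicates 1 (0.0542) and 3 (0.106). Both were lost with no filter (0.0834 and 0.0696) and without the arrays numbered 1 (0.0524 and 0.0779). Slc6a8 was 1.82-fold higher in C/EBPβ than in C/EBPα (log2 0.86, SE 0.20, adjusted p = 0.0187), which was lost without C/EBPα replicate 2 (0.0978) or 3 (0.0637) or C/EBPβ replicate 2 (0.119), and with no filter (0.0686). 3 further calls by pair fell outside the F-test: Slc38a10 was lower in C/EBPδ than in C/EBPβ (log2 -0.54, adjusted p = 0.0368), Slc25a5 higher (log2 0.52, adjusted p = 0.021) and Slc31a1 lower (log2 -0.55, adjusted p = 0.0222) in C/EBPε than in C/EBPδ. Slc38a10 lost this call without C/EBPβ replicates 2 and 3, any C/EBPδ array or C/EBPε replicate 3 (up to 0.155). Slc25a5 lost it without any C/EBPδ array or C/EBPε replicates 1 and 3 (up to 0.0717), and Slc31a1 without C/EBPδ replicate 2 (0.115) or C/EBPε replicate 1 (0.0607) or 3 (0.0764). Without the arrays numbered 1 all 3 were lost (0.168, 0.151 and 0.102), as were Slc38a10 with no trend (0.0516), Slc25a5 under quantile normalization (0.0565) and Slc31a1 with the mean of its probe sets (0.134).

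The F-test calls of Slc3a2 and Slc25a47 held in every alternative fit and without each array; those of Slc12a2 and Slc7a5 held without each single array and were lost without the arrays numbered 1 (0.0796 and 0.0811). That of Slc66a2 was lost without C/EBPδ replicate 1 (0.0793) or 2 (0.102) or the arrays numbered 1 (0.211), and that of Slc6a9 without C/EBPα replicate 3 (0.0519) or any C/EBPδ array (up to 0.1) and with no filter (0.0775). Slc23a3 lost it without C/EBPα replicates 1 (0.0512) and 3 (0.0809) or any C/EBPδ array (up to 0.0763), without the arrays numbered 1 (0.231) and with the mean of its probe sets (0.313). Slc39a6 lost it in 8 of the 15 fits, without C/EBPα replicates 2 and 3, C/EBPβ replicate 3, any C/EBPδ array or C/EBPε replicates 1 and 3 (up to 0.197), with no filter (0.137), with no trend (0.0716) and without the arrays numbered 1 (0.122). Slc6a8 lost it in 10, without vector replicate 3, any C/EBPα or C/EBPβ array, C/EBPδ replicates 1 and 2 or C/EBPε replicate 3 (up to 0.129), with no filter (0.114), with no trend (0.0636) and without the arrays numbered 1 (0.0773).

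**Figure D5:**
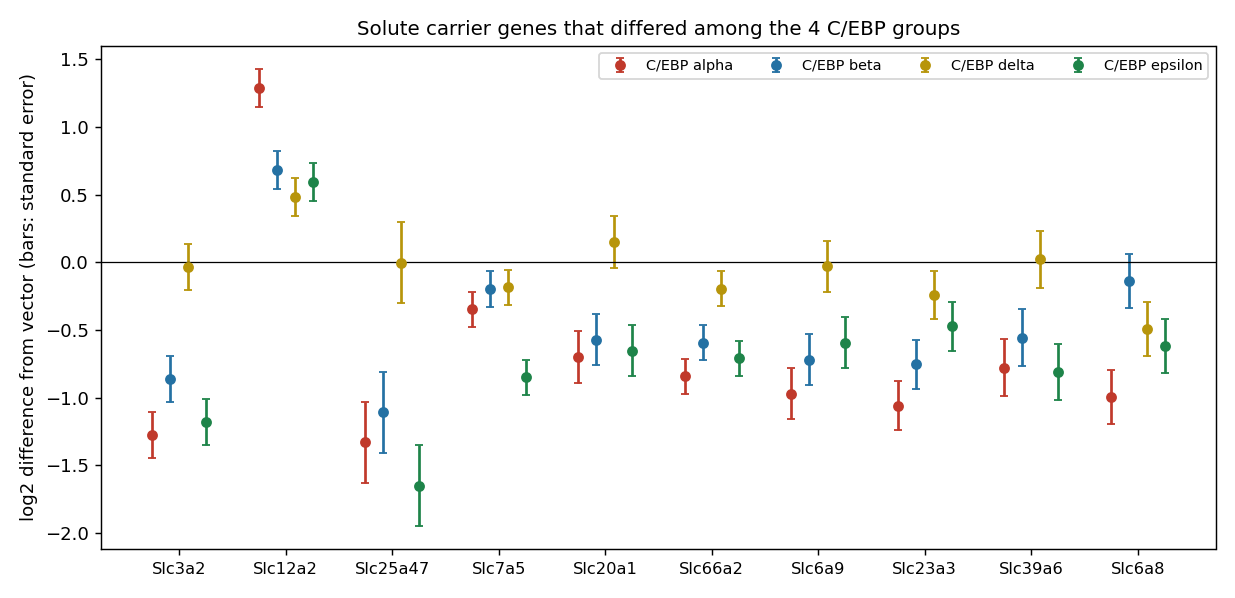
Log2 difference from vector (y axis, bars are SE of the fit) of the 10 solute carrier genes called by the F-test among the 4 C/EBP groups, in order of its adjusted p; colours are the C/EBPs. C/EBPδ lies near 0 in Slc3a2 (-0.04), Slc25a47 (-0.002), Slc6a9 (-0.03) and Slc39a6 (0.02), Slc12a2 is highest in C/EBPα (1.29) and Slc7a5 lowest in C/EBPε (-0.85).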

How the data were processed

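RNA was measured on 15 Affymetrix MG_74Av2 arrays. The authors deposited 1 linear intensity for each probe set, from Microarray Suite 5.0 per the labels. No detection calls were used here, and precision is limited by the 15 arrays. After removal of 66 control probe sets, arrays were scaled to a common median, signals under the pooled 20th percentile were set to it, and values were analysed as log2. The 6963 probe sets above the pooled median on at least 3 arrays were fitted together in R 4.3.3 with limma 3.58.1. The settings were lmFit and eBayes with a trend, two-sided, with 1 coefficient per group. The fit was tried on simulated arrays with independent noise. Those held no correlation between arrays of the same number, so they do not test the fit for it. Symbols came from the platform annotation given with the files (10833 probe sets with 1 gene, 396 with several, 1193 with none), and all 182 member Entrez IDs were found in GRCm38.p6 with the same symbols. The members, lists and tests were chosen with earlier results of these data known. Genes named are called members with arrays apart from vector, those with the largest ranges among C/EBPs, 2 per class by the F-test, and members whose probe sets disagree; 26 met this rule. Alternatives were other scalings, floors, filters, variance models, weights per array, a replicate block, the mean of probe sets and leaving out arrays.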

Additional observations from a re-analysis of the deposited data

How the results depend on the processing

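With 3 arrays a group, no array can be judged by itself, and the number of carriers called moved with single arrays. The counts against vector, 14 in C/EBPα, 9 in C/EBPβ, 0 in C/EBPδ and 15 in C/EBPε, ranged from 9 to 15, 6 to 10, 0 to 0 and 9 to 15 with 1 array left out, and the count of 10 that differed among the C/EBPs from 4 to 11. Array weights gave 14 in C/EBPβ, 2 in C/EBPδ, 24 in C/EBPε and 30 among the C/EBPs. Without the 5 arrays numbered 1 the counts were 5 in C/EBPβ, 9 in C/EBPε and 3 among the C/EBPs, from fewer arrays. With only the vector and C/EBPε arrays in the fit 9 were called in C/EBPε. Among the C/EBPs, 6 were called with no filter, where more probe sets are tested, and 6 by the univariate F-test that the labels name. With the replicate block, the replicate number as a term, 20, 13, 0 and 22 were called against vector and 18 among the C/EBPs. Deviations of arrays with the same number correlated from 0.225 to 0.439 for number 1 (median 0.355) and 0.0187 to 0.428 for number 2 (median 0.298). For number 3 they correlated from -0.069 to 0.124 (median 0.0537). Of the 15 arrays, 13 correlated best with an array of their own number. Arrays of the same number thus shared deviations, least so for number 3. Only the arrays numbered 1 were left out as a set, and no fit left out all arrays numbered 2 or 3. What the number stands for is not given, and the fit reported has no term for it. Of the 38 calls, 20 were lost under at least 1 alternative and 19 without at least 1 array; none reversed. The cause of these changes was not tested. The other scalings left the counts against vector within 1.5 times the values reported and moved the median of all genes by at most 0.0474 on the log2 scale; quantile normalization ended the call of Slc30a9 in C/EBPε and that of Slc25a5 between C/EBPε and C/EBPδ. Probe sets under the filter have no test here.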
